A study of Mus musculus with 7 samples.

Results

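The collagen genes of the mouse were followed in livers that lack the complement receptor gene C3ar1 and in livers of wild-type littermates. Members were all probes whose annotated symbol is Col, a number, the letter a and a number, and the probes of a gene were averaged. This gave 39 genes measured by 42 probes, of 16462 named genes and 23574 probes in all. Of the 39 genes, 11 encode fibrillar collagens and 28 encode other collagens. A further 5 collagen genes of the mouse reference, Col6a3, Col6a5, Col9a3, Col20a1 and Col22a1, were not analysed here.

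The study profiled liver RNA from 3 mice titled C3ar (-/-) KO and 4 wild-type mice titled C3ar1 WT, all on a chow diet. C3ar1 encodes the receptor for complement fragment C3a. Each 2-colour array compared 1 mouse with a common pool of liver RNA from 6 wild-type animals, and the pool cancels when the genotypes are compared. Livers carry the numbers of their titles, 1 to 4 for wild types and 2 to 4 for knockouts. The sources used here give no age, sex, strain or account of how the allele was made. Values are log ratios, most likely of the mouse over the pool, as the titles put the pool first, and neither this direction nor the base is stated. Folds assume base 10, and all signs would flip if the direction were the reverse.

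Collagens are proteins of the extracellular matrix in which chains wind into a triple helix. Fibrillar collagens are cut outside the cell and packed into fibrils that give tissue its tensile strength, while network collagens form the sheets of basement membranes, and fibril-associated, transmembrane and multiplexin types sit on fibrils, in cell membranes or in basement membrane zones. In liver the stellate cells of the perisinusoidal space are known as a main source of fibrillar collagen in fibrosis, and portal fibroblasts and endothelial cells also make collagens.

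The C3ar1 probe was read first. It gave -0.0296, -0.0318, 0.0225 and 0.0264 in wild-type livers 1 to 4, and 0.0042, 0.0337 and 0.0514 in knockout livers 2 to 4. The groups overlapped, and the difference was 0.0329 ± 0.0233 (SE; limma, adjusted p = 0.872). Which bases of C3ar1 the allele removes was not stated, so the probe may lie outside them and is no check of the labels or of the direction. Knockout liver 2 had the widest spread over probes, with an SD of 0.0975 against 0.0466 to 0.0676 on the other arrays. Signal over background was not analysed here, so a collagen whose ratio stays near 0 on every array may be one with little RNA in liver. The number of arrays limits the precision. In a bulk sample, fewer cells of a type and less RNA per cell cannot be told apart.

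No collagen gene passed the test between genotypes. Of the 39 genes 0 had an adjusted p under 0.05 (limma, Benjamini-Hochberg over all 16462 genes, adjusted p from 0.872 to 0.9996), where 0.00607% of all genes did, which is 1 gene. Before adjustment, 2 collagens lay under 0.05, or 5.13%, against 4.79% of all genes. Both were higher in the knockouts, a result that 2.02% of all genes gave: Col1a2, a chain of collagen I, and Col16a1, a fibril-associated collagen. In all, 24 of 39 collagens, or 61.5%, had a difference above 0, against 56.7% of all genes. The median difference, knockout minus wild type, was 0.0106 over the collagens and 0.00543 over all genes. In this fit the shares of the collagens thus lay near those of all genes. With the flatter probes left out, the medians were 0.0475 over the 18 collagens kept and -0.00112 over the 8729 genes kept.

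The plot of collagen differences shows how far these data bound a difference of log ratios. For 35 of 39 collagens the 95% interval of the difference lay within 1.5-fold either way, taking base 10. The other 4 were Col1a1, Col5a3, Col18a1 and Col27a1, and for Col1a1 and Col27a1 the interval reached past 2-fold. A p that misses the threshold does not show that the genotypes are alike for these 4 genes or for the others. Of the 39 collagens, 23 had an SD within groups at or below the median of all genes. As signal over background was not analysed, a narrow interval from a probe near background would not bound a change in RNA.

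**Figure D1:**
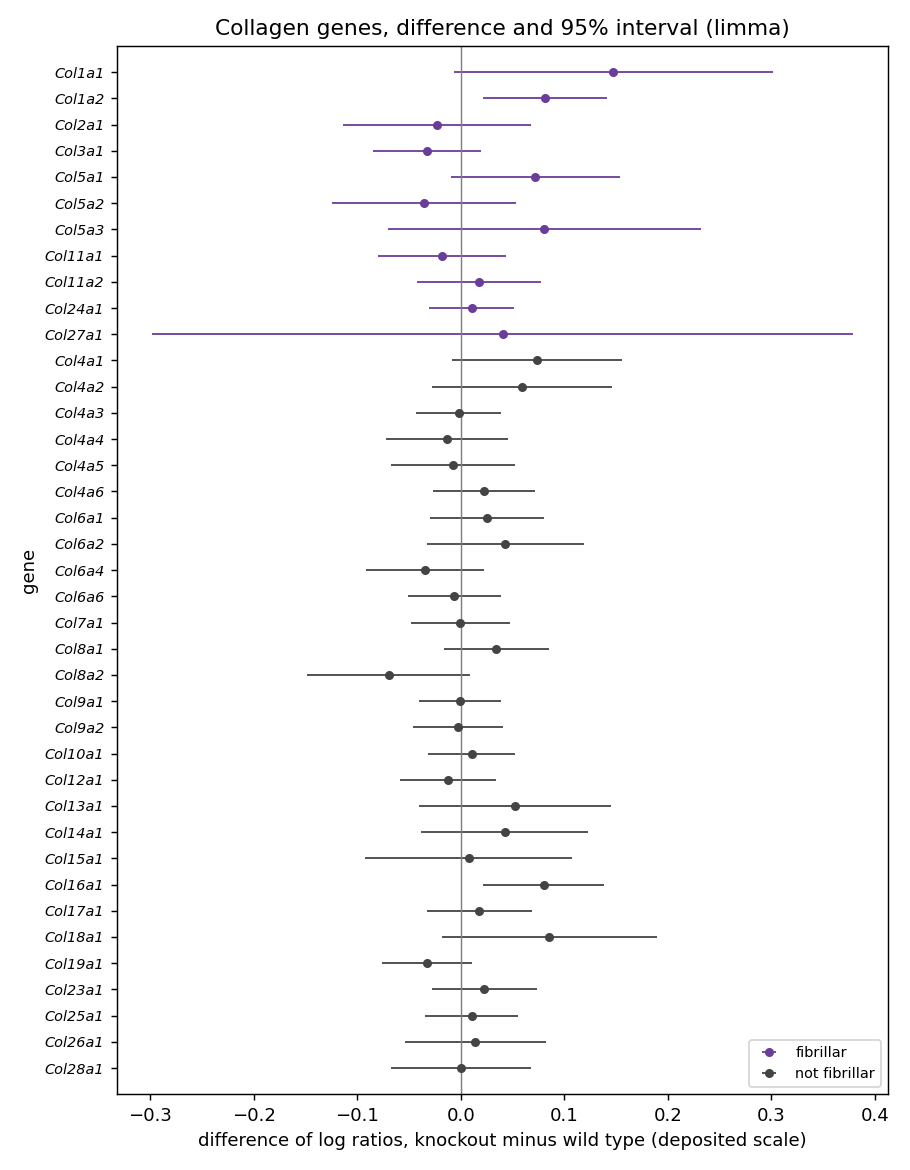
The horizontal axis gives the difference of log ratios, knockout minus wild type, on the deposited scale for each of the 39 collagen genes on the vertical axis, with fibrillar collagens above and in purple. Points are the limma estimates from 3 knockout and 4 wild-type livers and lines are 95% intervals, of which those of Col1a2 (0.0213 to 0.141) and Col16a1 (0.0217 to 0.138) do not cross 0 before adjustment.

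Among the fibrillar collagens, the chains of collagen I stood first. Collagen I, the most abundant fibril protein of scar tissue, is built from Col1a1 and Col1a2 chains. Col1a2 read -0.0391, -0.0124, -0.0034 and 0.0470 in wild-type livers 1 to 4, and 0.1049, 0.0456 and 0.0874 in knockout livers 2 to 4. Knockout livers 2 and 4 were above all wild types, and knockout liver 3 lay just below wild-type liver 4, so the groups overlapped by 1 pair of values. The difference of 0.0813 ± 0.0257 (SE) corresponds to 1.21-fold and did not pass (limma, adjusted p = 0.872).

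Col1a1 read -0.1489, 0.0424, -0.1584 and -0.0722 in the wild types, and 0.1332, -0.0733 and 0.1288 in the knockouts. Again knockout livers 2 and 4 were above every wild type, while knockout liver 3 lay within the wild-type range. The knockout mean was 0.0629 ± 0.118 and the wild-type mean -0.0843 ± 0.0929 (SD), and the difference of 0.147 ± 0.0661 (SE), or 1.40-fold, was the largest of the 39 collagens and did not pass (limma, adjusted p = 0.872). With array weights it was 0.0764. Its 95% interval ran from -0.00698 to 0.301.

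Collagen III, from 3 Col3a1 chains, joins collagen I in the same fibrils of liver and blood vessels. Col3a1 read 0.0357, 0.0355, -0.0106 and 0.0325 in the wild types, and 0.0137, 0.0038 and -0.0465 in the knockouts. Its difference was -0.0329 ± 0.0223 (SE), opposite in sign to those of the collagen I chains, and did not pass (limma, adjusted p = 0.872). Knockout liver 4 was the lowest of the 7, although that liver was among the highest for Col1a1 and Col1a2.

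Collagen V starts fibrils and limits their width. Its chain Col5a1 read -0.0768, -0.0376, 0.0089 and 0.0304 in the wild types, and 0.1024, -0.0058 and 0.0632 in the knockouts. As for the collagen I chains, knockout livers 2 and 4 were above every wild type and knockout liver 3 was not, and the difference was 0.0720 ± 0.0349 (SE). The chain Col5a3 read 0.2705, 0.0150 and 0.1121 in the knockouts, compared with -0.0645, 0.0794, 0.0972 and 0.0959 in the wild types, which is a difference of 0.0805 ± 0.0649, while the chain Col5a2 differed by -0.0355, with every knockout value inside the wild-type range. Without knockout liver 2 the Col5a3 difference was 0.01155. None of the 3 passed.

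The promoters of Col1a2, Col3a1, Col5a1 and Col16a1 are shown because these are the fibrillar collagens and the other collagen that lead the comparison by p and have a window in the RefSeq table of build GRCm38.p6, with Col3a1 as the fibril partner that read the other way. The stretches are up to 250 bases that end just before the annotated start of the gene, all on the plus strand: chr6:4505368-4505617 for Col1a2, chr1:45311288-45311537 for Col3a1, chr2:27886175-27886380 for Col5a1 and chr4:130047590-130047816 for Col16a1. Capitals mark matches on either strand to CCAAT (the CCAAT box), GGGCGG (the GC box) and TATAAA (the TATA box).
Col1a2: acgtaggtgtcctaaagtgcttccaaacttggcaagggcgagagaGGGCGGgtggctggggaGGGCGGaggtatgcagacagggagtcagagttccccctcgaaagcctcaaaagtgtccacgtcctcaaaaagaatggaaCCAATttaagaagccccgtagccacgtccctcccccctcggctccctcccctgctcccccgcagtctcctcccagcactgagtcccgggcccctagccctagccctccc
Col3a1: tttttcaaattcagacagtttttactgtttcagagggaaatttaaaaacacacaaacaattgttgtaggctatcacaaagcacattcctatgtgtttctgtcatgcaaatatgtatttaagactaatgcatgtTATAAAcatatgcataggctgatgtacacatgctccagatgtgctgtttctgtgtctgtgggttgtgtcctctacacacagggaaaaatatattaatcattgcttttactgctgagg
Col5a1: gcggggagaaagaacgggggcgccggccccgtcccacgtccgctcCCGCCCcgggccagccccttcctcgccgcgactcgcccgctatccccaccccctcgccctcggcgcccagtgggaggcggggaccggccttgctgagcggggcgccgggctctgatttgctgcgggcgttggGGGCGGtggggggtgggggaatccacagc
Col16a1: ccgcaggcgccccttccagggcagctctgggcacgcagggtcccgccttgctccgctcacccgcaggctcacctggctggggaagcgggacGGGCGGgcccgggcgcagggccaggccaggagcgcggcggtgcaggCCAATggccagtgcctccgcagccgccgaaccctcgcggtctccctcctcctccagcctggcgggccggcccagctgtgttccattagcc
The Col1a2 stretch held 1 CCAAT and 2 GGGCGG matches and that of Col16a1 held 1 of each. The Col5a1 stretch held 2 GGGCGG matches. That of Col3a1 held 1 TATAAA match and no other, and it was poor in G and C, at 35.2%, against 62.0% for Col1a2, 77.7% for Col5a1 and 75.8% for Col16a1. Of the 39 collagens, 32 had a window, 8 of them fibrillar. In the first 250 bases of a window CCAAT was found in 13 of the 32, GGGCGG in 20 and TATAAA in 5. Of 27025 genes 37.5%, 35.4% and 14.3% held them. Unlike the printed stretches, these bases were not cut at the annotated start, so for Col5a1 and Col16a1 they run into the gene. Of the 8 fibrillar windows, 3 held CCAAT, 6 held GGGCGG and 2 held TATAAA. A match describes letters only.

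The remaining fibrillar collagens are known mainly from cartilage and bone. Col2a1 differed by -0.0231 ± 0.0390, Col11a1 by -0.0185 ± 0.0264, Col11a2 by 0.0178 ± 0.0257 and Col24a1 by 0.0106 ± 0.0176 (SE), and none passed. Col27a1 was the most variable collagen, at -0.2413, -0.1242, 0.2798 and 0.2439 in wild-type livers 1 to 4 and 0.2820, -0.0602 and 0.0176 in the knockouts. Each genotype held both high and low livers for this gene. Its SD within groups, 0.232, lay at percentile 99.6 of all genes, and its difference was 0.0402 ± 0.145 (SE), which turned to -0.00882 after quantile normalization.

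**Figure D2:**
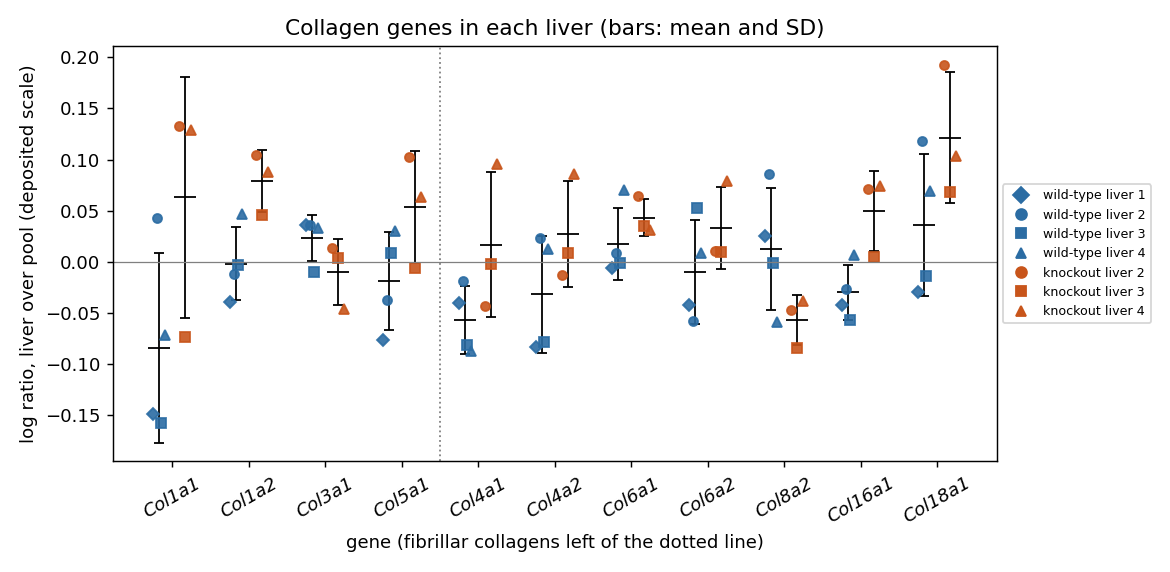
The vertical axis gives the log ratio of each liver over the pool on the deposited scale for 11 collagen genes, with blue marks for the 4 wild-type livers, orange marks for the 3 knockout livers and black bars for the mean and SD of each group. Knockout livers 2 and 4 lie above all wild types for Col1a1, Col1a2, Col5a1 and Col16a1, and knockout liver 3 does so for none of these 4. The other plotted genes do not share this order. For Col4a1 knockout livers 3 and 4 lie above, for Col18a1 only knockout liver 2, and for Col3a1 knockout liver 4 is lowest.

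Among the other collagens Col16a1 had the smallest p. It encodes a fibril-associated collagen with an interrupted triple helix. Col16a1 read -0.0424, -0.0266, -0.0570 and 0.0061 in wild-type livers 1 to 4, and 0.0714, 0.0048 and 0.0737 in knockout livers 2 to 4. The picture was that of Col1a2: knockout liver 3 lay just below wild-type liver 4, and the other knockouts were above every wild type. The difference of 0.0799 ± 0.0250 (SE) corresponds to 1.20-fold and did not pass (limma, adjusted p = 0.872).

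Collagen IV is the network collagen of basement membranes, made in most tissues from Col4a1 and Col4a2 chains. Col4a1 read -0.0407, -0.0185, -0.0819 and -0.0870 in the wild types, and -0.0431, -0.0024 and 0.0952 in the knockouts. Knockout livers 3 and 4 were above all wild types here and knockout liver 2 was within their range, and the difference was 0.0736 ± 0.0354 (SE). Col4a2 read -0.0838, 0.0233, -0.0785 and 0.0119 in the wild types, and -0.0128, 0.0088 and 0.0855 in the knockouts. Only knockout liver 4 exceeded the wild types for Col4a2, and the difference was 0.0589 ± 0.0373. The chains Col4a3, Col4a4 and Col4a5, known from the kidney filter, differed by -0.00188, -0.0132 and -0.00722, and Col4a6 by 0.0222. None of the 6 chains passed.

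Collagen VIII forms networks around vessels and in the cornea from Col8a1 and Col8a2 chains. Col8a2 read 0.0252, 0.0855, -0.0013 and -0.0586 in the wild types, and -0.0473, -0.0850 and -0.0388 in the knockouts. All 3 knockouts were below 0 and below 3 of the 4 wild types, and wild-type liver 4 lay among them. The difference of -0.0697 ± 0.0338 (SE) was the most negative of the collagens and did not pass (limma, adjusted p = 0.872). Col8a1 read -0.0305, -0.0387, 0.0109 and 0.0310 in the wild types and 0.0342, 0.0230 and 0.0254 in the knockouts, a difference of 0.0344 ± 0.0219. Col10a1, a network collagen of growing cartilage, differed by 0.0104.

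Collagen VI forms beaded microfibrils, and its chains Col6a1 and Col6a2 are made by many connective tissue cells. Col6a1 read -0.0061, 0.0082, -0.0014 and 0.0698 in the wild types, and 0.0639, 0.0348 and 0.0306 in the knockouts. Every knockout value lay inside the wild-type range, and the difference was 0.0255 ± 0.0236 (SE). Col6a2 read -0.0429, -0.0581, 0.0527 and 0.0081 in the wild types, and 0.0101, 0.0091 and 0.0790 in the knockouts. Knockout liver 4 alone was above the wild types, and the difference was 0.0428 ± 0.0325. The chains Col6a4 and Col6a6 differed by -0.0348 and -0.00617, and Col7a1, whose collagen anchors the epidermis, by -0.000608. None of the 5 passed.

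Collagen XVIII is a multiplexin of basement membranes whose C-terminal fragment is endostatin, and hepatocytes are known to make it. Col18a1 read -0.0293, 0.1181, -0.0142 and 0.0691 in the wild types, and 0.1927, 0.0681 and 0.1033 in the knockouts. Knockout liver 2 was the highest of the 7 and the other knockouts lay within the wild-type range. The difference of 0.0854 ± 0.0446 (SE) did not pass (limma, adjusted p = 0.872). The second multiplexin, Col15a1, differed by 0.00762 ± 0.0429.

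Col19a1 was the 1 collagen whose groups did not overlap. This fibril-associated collagen read 0.0000, 0.0312, -0.0034 and 0.0051 in the wild types, and -0.0083, -0.0159 and -0.0487 in the knockouts. All knockouts were below all wild types, although knockout liver 2 lay close to wild-type liver 3, and the difference was -0.0325 ± 0.0186 (limma, adjusted p = 0.872). Among all genes 2.61% were separated in this direction. No collagen was separated in the other direction, in which 2.77% of all genes were.

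Besides Col16a1 and Col19a1, 4 fibril-associated collagens were measured. Col14a1, which coats collagen I fibrils, read -0.1243, -0.0465, -0.1151 and -0.0378 in the wild types and -0.0596, -0.0827 and 0.0266 in the knockouts. It lay below the pool in all 4 wild types and in 2 of the 3 knockouts, and the difference was 0.0424 ± 0.0347 (SE). Col12a1, Col9a1 and Col9a2 differed by -0.0122, -0.000717 and -0.00265. The 4 transmembrane collagens Col13a1, Col17a1, Col23a1 and Col25a1 were all above 0, with differences of 0.0522, 0.0180, 0.0227 and 0.0103, and none passed. Col26a1 differed by 0.0141 and Col28a1 by 6.25e-05, the latter as the mean of 2 probes that read 0.0231 and -0.0230. The 3 probes of Col23a1 gave 0.0282, 0.0188 and 0.0211, and the other 37 collagens had 1 probe each.

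Fibrillar and other collagens were then set against each other. Differences above 0 were found in 7 of 11 fibrillar genes, with a median of 0.0178, and in 17 of 28 others, with a median of 0.0104. The mean log ratio of the fibrillar genes was -0.0611, 0.00739, 0.0224 and 0.0415 in wild-type livers 1 to 4, and 0.0818, -0.0129 and 0.0313 in knockout livers 2 to 4. The highest value was that of knockout liver 2 and the lowest that of wild-type liver 1, and the groups overlapped. For the other collagens the means were -0.00889, 0.00555, -0.00964 and 0.0118 in the wild types, and 0.0205, 0.00277 and 0.0207 in the knockouts, with knockout livers 2 and 4 above every wild type.

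Within each liver the fibrillar mean minus the mean of the others was 0.0187 ± 0.0391 in the knockouts and 0.00281 ± 0.0392 among the wild types (SD, n = 3 and 4). The genotypes differed in this contrast by 0.0159, less than the spread between mice. Single livers decided its sign: without knockout liver 2 it was -0.00535, and without wild-type liver 1 it was -0.00243. The median difference of the fibrillar genes was likewise -0.0112 without knockout liver 2 and 0.0376 without knockout liver 4.

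The knockout livers differed in how many collagens lay outside the wild-type range, as they did over all genes. Knockout liver 2 was above all wild types in 13 of 39 collagens and below all in 1. Knockout liver 4 was above in 12 and below in 9, and knockout liver 3 was above in 3 and below in 5. Over all genes the shares above were 33.6%, 20.3% and 12.7% for knockout livers 2, 4 and 3, and the shares below were 22.6%, 20.5% and 13.1%. For the collagens they were 33.3%, 30.8% and 7.69% above, and 2.56%, 23.1% and 12.8% below. Among the 11 fibrillar genes knockout liver 2 was above in 6 and below in 0, and knockout liver 3 was outside the wild-type range in 0.

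The spread between mice of a genotype is given for each class as a description. The median SD within groups was 0.0508 for the fibrillar genes, 0.0306 for the others and 0.0362 for all genes. It exceeded that of all genes in 6 of 11 fibrillar and 10 of 28 other collagens. Against the pool, Col4a3, Col6a4 and Col11a2 were above 0 in all 4 wild types and Col4a1, Col5a2 and Col14a1 below 0 in all 4.

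Chains that share a trimer, a fibril or a locus were compared over the 7 livers in 12 pairs. Col1a1 and Col1a2 gave a Pearson r of 0.742 (two-sided exact permutation test, p = 0.0710, and 0.284 when adjusted over the 12 pairs) and a Spearman rho of 0.714 (exact permutation p = 0.0881, adjusted 0.352). Leaving out knockout livers 2 and 4, the 2 farthest from the median of Col1a1, gave r = 0.180, so the r over 7 livers rests on them, and this also narrows the range of Col1a1. Removing the genotype means gave r = 0.495. Col4a1 and Col4a2, neighbours on the chromosome that are transcribed in opposite directions, gave r = 0.726 (exact permutation p = 0.0585, adjusted 0.284) and rho = 0.464 (exact permutation p = 0.302, adjusted 0.605), with r = 0.771 without the 2 farthest livers. Neither passed after adjustment.

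The chains of collagen VIII varied in opposite directions over the livers. Col8a1 and Col8a2 gave r = -0.908 (exact permutation test, two-sided, p = 0.00357, adjusted 0.0429), the 1 pair of the 12 that passed. Their rho was -0.75 (exact permutation p = 0.0663, adjusted 0.352). Wild-type livers 1 and 2 were lowest for Col8a1 and highest for Col8a2. The SD of Col8a1 within groups was 0.0260, at percentile 29.7 of all genes. Leaving out wild-type livers 1 and 2, the 2 farthest from the median of Col8a1, gave r = -0.580. The r over 7 livers thus rests in part on them, and this also narrows the range of Col8a1. With the genotype means removed r was -0.850, and in both cases 0 of 12 pairs passed after adjustment. Neither count bears on stability, since with these fewer permutations a lone pair cannot go below an adjusted p of 0.1 without those livers (exact permutation, 5 livers) or 0.0833 with means removed. Col4a3 and Col4a4 gave r = -0.645 (exact permutation p = 0.113, adjusted 0.338) and Col6a1 and Col6a2 gave r = 0.228 (exact permutation p = 0.608, adjusted 0.811). Over all 741 pairs of collagens the median r was 0.0631, over 55 fibrillar pairs 0.136 and over 378 other pairs 0.0524, where all pairs share the same 7 arrays and the same pool.

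**Figure D3:**
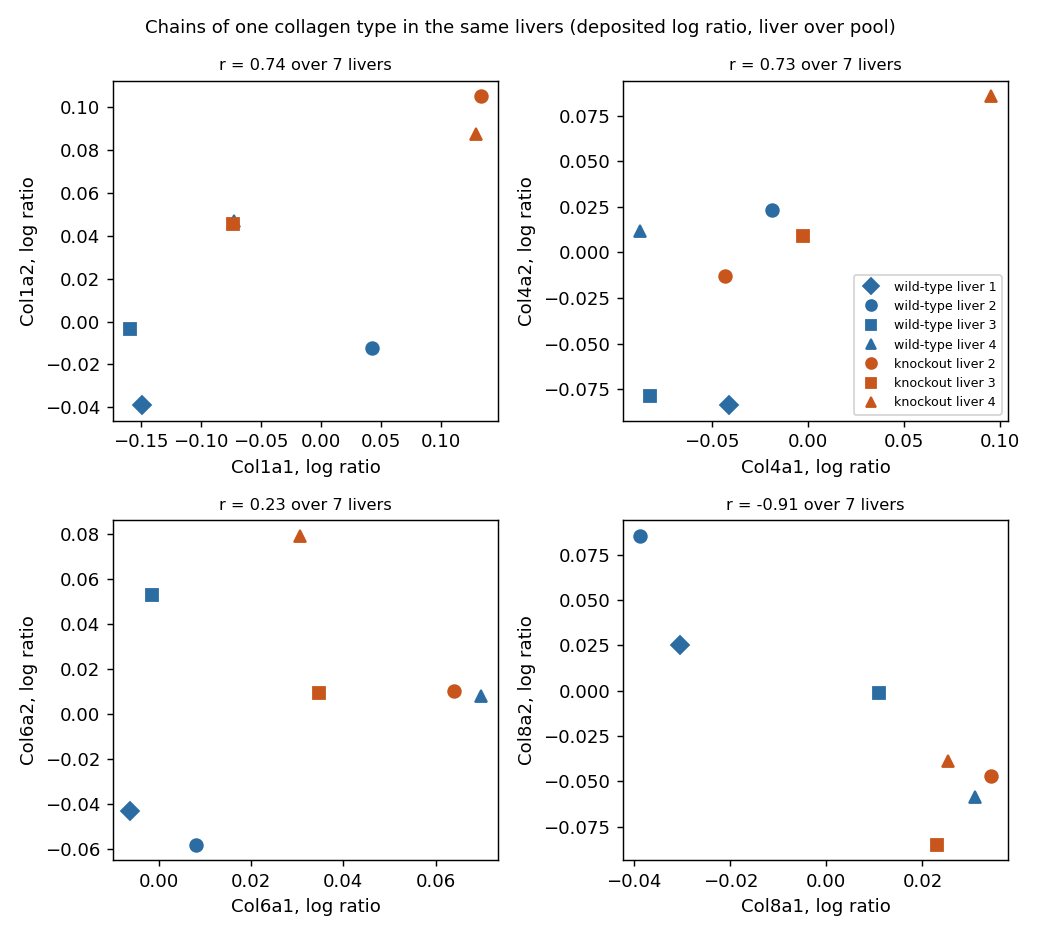
Each panel plots the log ratio of one chain against that of its partner on the deposited scale, for collagens I, IV, VI and VIII, with 1 mark per liver (blue for wild type, orange for knockout). Points run upward for Col1a1 with Col1a2 (r = 0.742) and Col4a1 with Col4a2 (r = 0.726), show little order for collagen VI (r = 0.228) and run downward for Col8a1 with Col8a2 (r = -0.908).

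Genes of the collagen pathway were read next, from the enzymes that make, cut and cross-link collagen to inhibitors, receptors, matrix partners and TGF-beta signalling. Of the 88 measured pathway genes 0 passed over all genes. In limma 6 of them, or 6.82%, lay under an unadjusted p of 0.05, 4 higher and 2 lower, where 4.79% of all genes did and 2.02% were higher. Of the 88, 67 had a difference above 0, or 76.1%, with a median of 0.0176, beside 56.7% and 0.00543 over all genes. In the folding and hydroxylation list 13 of 17 were above 0, with a median of 0.0160. Colgalt1, a galactosyltransferase that glycosylates hydroxylysine in collagen, read 0.0050, 0.0172, -0.0065 and -0.0195 in the wild types, and -0.0289, -0.0401 and -0.0803 in the knockouts. All 3 knockouts were below every wild type, and the difference was -0.0488 ± 0.0197 (SE; limma, adjusted p = 0.872).

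Procollagen processing and cross-linking genes were above 0 in 8 of 11, with a median of 0.0215. Pcolce, which enhances the removal of the C-propeptide of fibrillar procollagens, read -0.1513, 0.0135, -0.0206 and -0.0008 in the wild types, and 0.1226, 0.0525 and 0.0914 in the knockouts. The knockouts were above all wild types, and the difference was 0.129 ± 0.0417, or 1.35-fold (limma, adjusted p = 0.872). Loxl1, a lysyl oxidase known for elastic fibres, differed by 0.0485 ± 0.0198.

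Genes of collagen degradation and its inhibitors were above 0 in 11 of 12, with a median of 0.0193. Mmp14, a membrane-bound protease that cleaves fibrillar collagen and activates Mmp2, read -0.0014, 0.0167, -0.1060 and -0.0567 in the wild types, and 0.0994, 0.0463 and 0.0668 in the knockouts. The knockouts were again above all wild types, and the difference was 0.108 ± 0.0324, or 1.28-fold (limma, adjusted p = 0.872). For Pcolce and Mmp14, unlike Col1a1, knockout liver 3 was with the other knockouts.

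Collagen receptors were above 0 in 6 of 8 (median 0.0160), with the integrin chain gene Itga11, first by p, at 0.0291. Fibril-binding proteoglycans and glycoproteins were above 0 in 10 of 14 (median 0.0197), with periostin, Postn, at -0.0926 ± 0.0535. Basement membrane partners were above 0 in 9 of 12 (median 0.0158), with the laminin chain gene Lamb2 at 0.0517 ± 0.0229. Genes of TGF-beta signalling, a known inducer of collagen genes, were above 0 in 10 of 14 (median 0.0138). Their members of smallest p went opposite ways, with Ltbp3, a binding protein of latent TGF-beta, at 0.0523 ± 0.0178 and the signal transducer Smad2 at -0.0949 ± 0.0329. The genotypes did not overlap for either. Of the 88 pathway genes 4 were separated above and 2 below, where 2.77% and 2.61% of all genes were. None of the genes named here passed over all genes.

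Markers of the cells of the liver were read in the same way. Of 37 measured marker genes 34 had a difference above 0, or 91.9%, with a median of 0.0350, beside 56.7% and 0.00543 over all genes. Over all genes 0 of them passed in limma, with 4 under an unadjusted p of 0.05, or 10.8% beside 4.79% of all genes. All 7 stellate cell markers other than collagens were above 0 (median 0.0277), led by Cygb, cytoglobin, at 0.0978 ± 0.0334. The mean of this list ran from -0.0359 to 0.00286 in the wild types and from 0.00131 to 0.0456 in the knockouts, with knockout liver 4 highest and knockout liver 3 lowest of the knockouts. Endothelial markers were above 0 in 7 of 7 (median 0.0350), led by the scavenger receptor gene Stab1 at 0.102 ± 0.0306, and their mean ran from -0.0461 to 0.0092 in the wild types and from -0.0182 to 0.0524 in the knockouts. Portal fibroblast markers were above 0 in 5 of 6 (median 0.0214), with Gli1, first by p, at 0.0654 ± 0.0236, with list means from -0.0310 to 0.0179 in the wild types and from 0.00465 to 0.0266 in the knockouts.

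Markers of cells that are no main source of fibrillar collagen were read beside them. Kupffer cell markers were above 0 in 7 of 7 (median 0.0450), with the scavenger receptor gene Marco at 0.365 ± 0.154 (0.196 without knockout liver 4 and 0.575 without knockout liver 3), and list means ran from -0.288 to -0.0992 in the wild types and from -0.216 to 0.142 in the knockouts. Hepatocyte markers were above 0 in 6 of 6 (median 0.0386, Apoa1 at 0.0291), with means from -0.0996 to 0.138 and from 0.00015 to 0.121. Cholangiocyte markers were above 0 in 2 of 4 (median -0.0063, Epcam at -0.0983), with means from -0.0614 to 0.154 and from -0.0296 to 0.0238. Ratios to a liver pool carry no level, so whether a defining marker was near background could not be read. The part of cell composition in the collagen values was not tested.

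**Figure D4:**
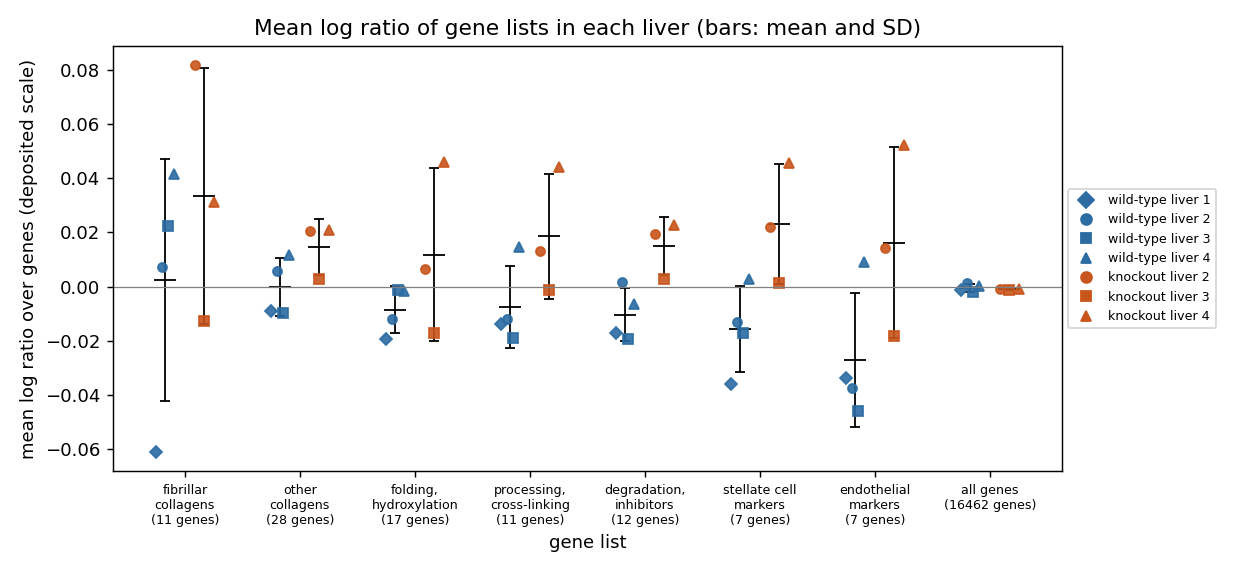
The vertical axis gives the mean log ratio over the genes of each list in each liver on the deposited scale, with blue marks for wild types, orange marks for knockouts and black bars for the mean and SD. The fibrillar mean reaches 0.0818 in knockout liver 2 and -0.0129 in knockout liver 3, while stellate and endothelial marker means are highest in knockout liver 4, at 0.0456 and 0.0524.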

How the data were processed

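Liver RNA of 7 mice was profiled on 2-colour arrays against 1 pool. Per the labels, RNA was amplified and labelled by aminoallyl coupling, with Cy3 and Cy5 as the dyes, and the design text mentions a dye swap. The deposited values are log ratios made by the authors and were read as log10, a base that is not stated. The sources used here do not give scanner software, background correction or normalization. No value column was unassigned (0 of them unused). Symbols came from the platform annotation and were updated through Entrez numbers (17724 probes) or accessions (21 probes). Probes of a gene were averaged, and all 16462 genes entered one two-sided fit of knockout minus wild type (lmFit and eBayes of limma, version 3.58.1, under R, version 4.3.3), with p-values adjusted by Benjamini-Hochberg and a threshold of 0.05. An error is either an SD between mice or an SE from this fit.

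The members and the lists were chosen with earlier results of these data known. Values per mouse are given for Col1a1, Col1a2, Col3a1, Col4a1, Col4a2, Col6a1, Col6a2, Col18a1 and the 4 fibrillar and 4 other collagens of smallest p, and from each other list as many as 3 genes with the lowest p were open to naming. Those of Col5a3, Col8a1, Col14a1, Col19a1 and Col27a1 were added after their values were seen. The labels describe littermates, and the 7 arrays were kept as separate mice, as their titles number them. No pair shared identical values in more than 0.119% of probes. That check finds only copied columns, so it cannot show that the mice were separate. Relations between chains used an exact permutation test over arrays, adjusted over 12 pairs. The fit was run on simulated data as a check of the code. Its pass mark covered only differences larger than that of any collagen, so it does not bear on recovery at the sizes seen here. The alternatives were 3 normalizations, a filter on flat probes, other summaries of probes, other symbols, robust and weighted fits, a replicate block and each array left out.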

Additional observations from a re-analysis of the deposited data

Results flagged for a closer look

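For 64 values among the 4 wild-type livers, those of the collagens, C3ar1 and the list means, the gap of the most extreme liver to the next was compared with the whole range of the group. Chance passes Dixon's critical value, used here as the limit, in about 1 of 20 groups. The limit was passed for 3 genes, a count near what that rate gives over 64 values. These 3 were fibrillar collagens. Col3a1 read -0.0106 in wild-type liver 3, while the other wild types lay between 0.0325 and 0.0357. Col5a3 read -0.0645 in wild-type liver 1, against 0.0794 to 0.0972 in the others. Col24a1 read 0.0225 in wild-type liver 1, against -0.0146 to -0.0099. Groups of 3 knockouts were too small for this check.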

How the results depend on the processing

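No collagen passed under any of the 17 alternatives fitted, and the smallest adjusted p of a collagen was 0.568 (limma, without knockout liver 3). The sign of the difference was kept by 25 of 39 collagens under every alternative, Col1a1, Col1a2, Col3a1, Col5a1, Col16a1 and Col18a1 among them, and by all 15 list members followed through the alternatives. These 15 were picked from the main fit, as first by p in their list or under an unadjusted p of 0.05. That choice favours a kept sign, so their count does not bear on stability. The sign turned in 14 collagens, of which 5 (Col4a3, Col12a1, Col25a1, Col27a1 and Col28a1) turned with all 7 arrays kept, and the cause was not tested. With array weights, which gave knockout liver 3 a weight of 3.45 and knockout liver 2 one of 0.438, the differences were 0.00868 for Col4a3, 0.00388 for Col12a1, -0.000686 for Col25a1 and -0.0679 for Col27a1, and 4 collagens lay under an unadjusted p of 0.05. Over all 16462 genes 1033 lay under that p with array weights, beside 788 in the main fit (limma). The contrast of fibrillar minus other collagens with array weights was -0.00634. Among collagens with values per mouse that kept their sign, array weights gave 0.0764 for Col1a1, 0.0330 for Col5a1, 0.0071 for Col5a3, 0.0524 for Col16a1, 0.0262 for Col6a2 and 0.0217 for Col14a1, moves of over 1.5 times. Moves of that size also came without knockout liver 2 for Col5a1 (0.0475), Col5a3 (0.01155), Col6a1 (0.0151) and Col18a1 (0.0498), without knockout liver 4 for Col3a1 (-0.0145), Col4a1 (0.0343), Col4a2 (0.0298), Col6a2 (0.01965), Col14a1 (0.00978) and Col19a1 (-0.0203), without knockout liver 3 or wild-type liver 1 for Col5a3 (0.139 and 0.0417) and Col14a1 (0.0644 and 0.0279), without wild-type liver 2 for Col8a2 (-0.0455) and Col6a2 (0.0268), and without wild-type liver 4 for Col6a1 (0.0429). Scale normalization gave 0.0493 for Col5a3. Named list members also moved by over 1.5 times while they kept their sign. Array weights gave 0.116 for Marco, -0.0430 for Postn, 0.0595 for Cygb and 0.0105 for Itga11. Without knockout liver 2 the differences were 0.01035 for Itga11, 0.0319 for Lamb2, -0.0601 for Smad2 and 0.0431 for Gli1. Epcam was at -0.0456 without wild-type liver 2, and Loxl1 at 0.0853 with the flatter probes left out. Quantile normalization gave -0.00882 for Col27a1 and median centring -0.00460 for Col28a1. Leaving out the flatter part of the probes kept 18 collagens, 14 of them above 0 and 1 under an unadjusted p of 0.05, with -0.0230 for Col28a1. Of the 8729 genes kept in all, 421 lay under that p in limma. Medians were then 0.0475 for all collagens, 0.0720 for fibrillar and 0.0428 for others, beside -0.00112 over the 8729 genes. Collagens of small differences are among those left out, and the cause of the higher medians was not tested. The replicate block, which uses livers 2 to 4 of each genotype, gave 3.33e-05 for Col4a4, 0.0124 for Col7a1, 0.000967 for Col9a1, 0.00183 for Col9a2, -0.0140 for Col15a1, -0.0534 for Col27a1, -0.00843 for Col28a1 and -0.00243 for fibrillar minus other. Deviations of livers of the same number from their genotype means correlated at -0.135, -0.209 and -0.129. Deviations within a genotype sum to 0, which ties these signs together. They therefore cannot decide whether the numbers pair the mice. Leaving out each array in turn gave from -0.00535 to 0.0331 for fibrillar minus other, from -0.0112 to 0.0376 for the fibrillar median, from 0.00567 to 0.0164 for the median of all collagens, from 21 to 28 collagens above 0 and from 1 (without knockout liver 4) to 4 (without knockout liver 3 or wild-type liver 2 or 4) under an unadjusted p of 0.05. The 21 came without knockout liver 2 and the 28 without knockout liver 4, where the medians of all genes were 0.002025 and 0.006325. Of all 16462 genes, 828 lay under that p in limma without knockout liver 4 and 1162 without knockout liver 3. Without wild-type liver 2 or 4 these counts were 724 and 812, beside 788 in the main fit. With each array left out in turn, single collagens ranged from -0.0118 to 0.0108 for Col4a3, -0.0253 to 0.00735 for Col4a4, -0.0214 to 0.0105 for Col4a5, -0.0176 to 0.00565 for Col6a6, -0.00853 to 0.0124 for Col7a1, -0.00673 to 0.0059 for Col9a1, -0.0103 to 0.0110 for Col9a2, -0.0112 to 0.0376 for Col11a2, -0.0259 to 0.0004 for Col12a1, -0.0188 to 0.0425 for Col15a1, -0.0057 to 0.0199 for Col25a1, -0.00768 to 0.0276 for Col26a1, -0.0609 to 0.120 for Col27a1 and -0.0138 to 0.0219 for Col28a1. Of the chain pairs, 0 passed with genotype means removed or without the 2 farthest livers, where a lone pair could not pass. With means removed r was 0.0537 for Col1a1 and Col3a1 and 0.295 for Col1a1 and Col5a2. Without the 2 farthest livers r was 0.463 for Col1a1 and Col3a1, 0.181 for Col1a1 and Col5a2 and 0.452 for Col3a1 and Col5a2. Signal over background was not analysed here, so dim probes could not be set aside.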
